A study of Homo sapiens with 3 samples.

Results

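The 37 genes of the human mitochondrial genome were examined in RNA sequencing of cells labelled KG1, an established cell line derived from acute myeloid leukemia. They were all the genes that the deposited table places on chromosome MT, 37 of 61806 genes, and comprised 13 protein-coding, 2 ribosomal RNA (rRNA) and 22 transfer RNA (tRNA) genes. The series held 3 libraries. For the libraries labelled shUCP2#2 and shUCP2#3, lentivirus had delivered an shRNA (short hairpin RNA) that targets UCP2, a different hairpin in each, and the cells of the control library carried a control vector. In all 3 cases the positive cells were selected and expanded before harvest. UCP2 encodes a transport protein of the mitochondrial inner membrane. The labels do not state whether separate cultures were used, so p-values say nothing of variation between cultures, and the spread between libraries may be technical. In the edgeR test used below, the variance was taken from genes of like abundance and does not hold a gene's own spread between the shUCP2 libraries.

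Human mitochondrial DNA is a small circle that is copied and transcribed inside the organelle. Each strand is transcribed as a long precursor, and that of the plus-strand genes holds both ribosomal RNAs and most of the messenger and transfer RNAs. The tRNAs, which punctuate most of the larger genes, are cut out so that the pieces on either side are set free. The messenger RNAs mostly receive a short poly(A) tail, which in several of them completes the stop codon. Their products are core subunits of respiratory complexes I, III, IV and V, which join a larger number of subunits encoded in the nucleus, and both rRNAs form the core of the mitochondrial ribosome. All proteins that transcribe, cut, modify and degrade these RNAs are encoded in the nucleus.

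The libraries held 16475165 gene counts in shUCP2#2, 17562153 in shUCP2#3 and 18375090 in the control. A count of 0 allows a level of up to 0.182, 0.171 and 0.163 CPM, a count set relative to library size, in the shUCP2#2, shUCP2#3 and control libraries (3 counts of the total). As a check of the labels, the targeted gene UCP2 had 608 and 649 counts in the shUCP2#2 and shUCP2#3 libraries, against 651 in the control, and its log2 fold change was 0.058 (SE 0.15), with adjusted p = 0.888 in edgeR. The transcript was not lower, and every direction below is that of the libraries labelled shUCP2, not of a measured loss of UCP2. Among markers of the labelled cell type, the progenitor antigen CD34 had 10 and 0 counts in the shUCP2#2 and shUCP2#3 libraries, against 0 in the control, and MPO, the myeloperoxidase gene, had 0 in each. Other markers of these types were partly present and partly near 0. Of 8 progenitor markers 4 passed the low-count filter. Among them GATA2 had 2444 and 2669 counts in the shUCP2#2 and shUCP2#3 libraries, against 2439 in the control. SPINK2 had 0 in each library, ERG 2 and 2, against 0, and PROM1 5 and 0, against 2. Of 8 myeloid markers 3 passed, with CD33 at 542 and 669 counts, against 725. CSF1R had 0 in each library, PRTN3 had 5 in each, ELANE had 0 and 1, against 0, and CEBPA 5 and 9, against 0. Of 4 MHC class II markers 3 had 0 counts in all libraries, and CD74 had 9 and 10, against 6. All 11 erythroid and megakaryocyte markers passed the low-count filter, among them the fetal globin gene HBG2 with 15211 and 16496 counts in the shUCP2#2 and shUCP2#3 libraries and 24738 in the control. The shUCP2#2 library stood apart in fibroblast markers, of which COL1A1, COL1A2 and DCN had 507, 806 and 403 counts there, 0, 3 and 1 in shUCP2#3 and 0, 2 and 5 in the control. Of the 12 markers of that list 10 were called higher by edgeR over both shUCP2 libraries, beside 6.25% of all tested genes. Among the called markers, COL1A1, LUM and COL5A1 had counts in shUCP2#2 only, and DCN, COL3A1 and FBN1 were below the control in shUCP2#3. COL1A2, SPARC, PDGFRB and COL6A3 were above the control in both shUCP2 libraries. The summed level of the list was 483 CPM in shUCP2#2, 226 in shUCP2#3 and 281 in the control. FN1 alone had 279.7, 207 and 267 CPM there and was not called, and without it the sums were 204, 19.4 and 14.01 CPM. In bulk RNA, fewer cells of a type and less RNA per cell cannot be told apart.

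The genes sit close together on the circle, and several junctions bear on how counts can be assigned. Coordinates are those of the deposited table, and all 37 genes match GENCODE 29 (GRCh38) in position, strand and length. Of the protein-coding genes 12 lie on the plus strand and 1, MT-ND6, on the minus strand, and among the tRNA genes 14 are on the plus strand and 8 on the minus strand. Neighboring protein-coding genes share bases at 3 places. MT-ATP6 and MT-CO3 have 1 base in common, at position 9207. The 2 longer overlaps are shown because a read across them overlaps both genes. How such reads were counted is not given in the sources used here. Printed 5′ to 3′ with the shared bases in capitals and their flanks in lower case, MT-ATP8 and MT-ATP6 share 46 bases within positions 8503 to 8596, and MT-ND4L and MT-ND4 share 7 within positions 10736 to 10790.
MT-ATP8 and MT-ATP6: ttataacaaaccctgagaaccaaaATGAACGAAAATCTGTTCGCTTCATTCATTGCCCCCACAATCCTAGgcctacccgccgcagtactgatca
MT-ND4L and MT-ND4: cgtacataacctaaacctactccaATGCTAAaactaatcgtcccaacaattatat

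The genomic 3′ ends of the messages differ in how much of a stop codon they carry, and the last 24 bases of 8 genes discussed below are shown for that reason, with the final codon or what remains of it in capitals. Over the 13 protein-coding genes, 5 end in a lone T, 1 in TA and 7 in a whole codon. Where the codon is incomplete, the poly(A) tail is known to complete it. The message of MT-ND6 is known to lack such a tail.
MT-ND1 (4239 to 4262, plus strand): ctccagcattccccctcaaaccTA
MT-CO1 (7422 to 7445, plus strand): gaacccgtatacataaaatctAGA
MT-CO2 (8246 to 8269, plus strand): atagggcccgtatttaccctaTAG
MT-CO3 (9967 to 9990, plus strand): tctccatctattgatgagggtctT
MT-ND4 (12114 to 12137, plus strand): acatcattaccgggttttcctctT
MT-ND5 (14125 to 14148, plus strand): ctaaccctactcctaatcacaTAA
MT-ND6 (14149 to 14172, minus strand): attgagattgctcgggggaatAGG
MT-CYB (15864 to 15887, plus strand): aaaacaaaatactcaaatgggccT
MT-ND5 and MT-ND6 are encoded on opposite strands and meet end to end, at positions 14148 and 14149. Which strand was counted is not given in the sources used here, and reads of a gene and reads antisense to it cannot be told apart.

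Mitochondrial RNA was a larger part of the shUCP2#2 library and a smaller part of the shUCP2#3 library than of the control. The 37 genes together took 2.52% of all gene counts in shUCP2#2 (exact binomial 95% interval 2.51 to 2.52%) and 1.54% in shUCP2#3 (1.54 to 1.55%), against 1.94% in the control (1.93 to 1.94%). Protein-coding genes took 1.45% in shUCP2#2 (1.44 to 1.45%) and 0.946% in shUCP2#3 (0.941 to 0.9505%), against 1.21% in the control (1.21 to 1.22%). Both classes thus had the same order of libraries, since rRNA took 1.07% and 0.592% of counts in shUCP2#2 and shUCP2#3, against 0.722% in the control. tRNA genes took 0.00483% in shUCP2#2, 0.00405% in shUCP2#3 and 0.00408% in the control, and the intervals of shUCP2#3 and the control overlapped (0.00376 to 0.00436% in shUCP2#3 and 0.00379 to 0.00438% in the control). These intervals cover counting error only and say nothing of variation between cultures. By FPKM, the count scaled to gene length and library size, MT-RNR2 was the highest of all genes of the table in each library, and 11, 10 and 9 mitochondrial genes were among the top 50 in the shUCP2#2, shUCP2#3 and control libraries.

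**Figure D1:**
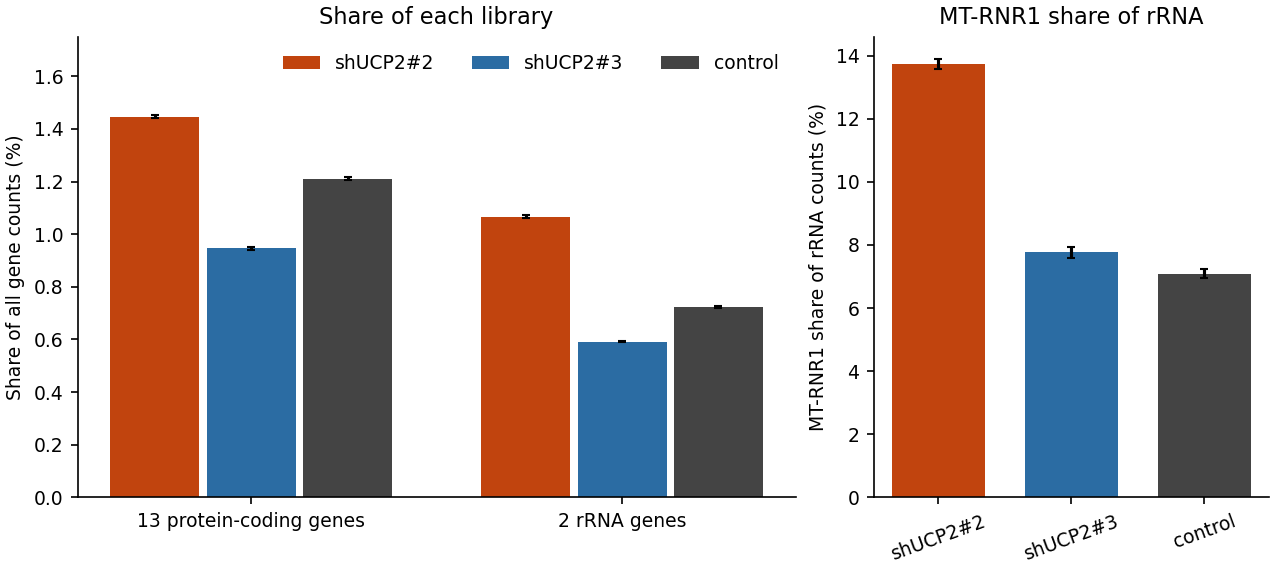
Left, share of all gene counts (%) held by the 13 protein-coding and the 2 rRNA genes of the mitochondrial genome in the shUCP2#2, shUCP2#3 and control libraries (1 library each); right, share of MT-RNR1 in the rRNA counts (%). Error bars are exact binomial 95% intervals of counting error. Both classes are highest in shUCP2#2 and lowest in shUCP2#3, and MT-RNR1 makes up 13.7% of rRNA counts in shUCP2#2, 7.76% in shUCP2#3 and 7.09% in the control.

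Of the 37 genes 16 passed the low-count filter: the 13 protein-coding genes, both rRNA genes and 1 tRNA gene, MT-TP. All 16 were above the control in shUCP2#2, against 50.6% of all 15232 tested genes, and 14 were below it in shUCP2#3, against 49.9% of all tested genes. All 16 were also higher in shUCP2#2 than in shUCP2#3, as were 50.2% of all tested genes, by 1.20 to 3.22 times, and 14 of them by at least 1.5 times, which 10.9% of tested genes reached. The median log2 ratio to the control over the 16 genes was 0.42 in shUCP2#2 and -0.26 in shUCP2#3, beside medians of all tested genes of 0.0055 and 0. The difference between the hairpin libraries has no test, since there is 1 library of each, and the 2 ratios share the control library.

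In edgeR's quasi-likelihood test of both shUCP2 libraries against the control, 6 of the 16 genes were called higher and 2 lower at an adjusted p under 0.05, where 6.25% of all tested genes were called higher and 6.11% lower. MT-RNR1, MT-RNR2, MT-ND1, MT-ND5, MT-ND6 and MT-CYB were the higher genes, and MT-CO1 and MT-CO3 the lower ones. Only MT-ND5 and MT-ND6 of the 16 had both shUCP2 libraries on 1 side of the control, in both cases above it. For MT-ND6 the shUCP2#3 library was close to the control, at a log2 ratio of 0.053. Of all tested genes 77% had both libraries on 1 side and 38.8% had both above. The other 6 calls joined a hairpin library above the control with one below it, while 99.1% of all called genes had both on 1 side. These shares count a gene with 0 counts in shUCP2#3 and the control, such as COL1A1, as above the control in both. Such ties were not taken out. The mean difference from the control was larger than the SD of the 2 shUCP2 libraries in 1 of the 16 genes, MT-ND5, against 68.1% of all tested genes. With 1 residual degree of freedom edgeR took the variance from genes of like abundance, so its SE does not hold a gene's own spread between hairpins. All 8 calls were lost in DESeq2, which called 630 of 7115 genes with an adjusted p, and in limma on log2(FPKM + 1), which called only 2 of 10937 genes. At an unadjusted p under 0.05 stood 0 of the 16 genes in either fit, beside 1682 and 2291 of all genes.

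**Figure D2:**
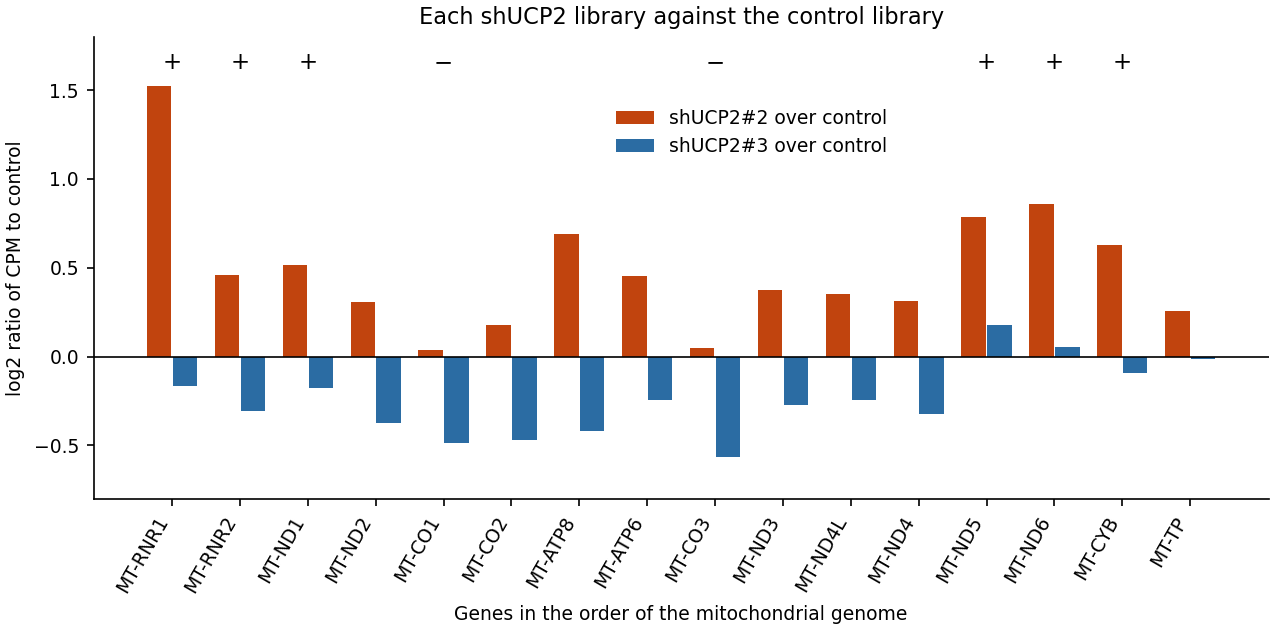
log2 ratio of CPM to the control library for the 16 tested mitochondrial genes, in genome order, for shUCP2#2 and shUCP2#3 (1 library each, so without error bars); + and − mark genes called higher or lower by edgeR over both shUCP2 libraries. All 16 ratios are above 0 in shUCP2#2, and 14 are below 0 in shUCP2#3, all but MT-ND5 and MT-ND6.

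The ribosomal RNAs held the largest difference between libraries. MT-RNR1 (positions 648 to 1601, plus strand), the RNA of the small mitochondrial ribosomal subunit, had 24138 counts in shUCP2#2 and 8068 in shUCP2#3, against 9399 in the control. The shUCP2#2 library stood alone at the high end, and the shUCP2#3 library was below the control. Its level was 965 ± 718 CPM (SD, n = 2) with the hairpins and 512 CPM in the control, and edgeR gave a log2 fold change of 0.91 (SE 0.078, adjusted p = 9.92e-29). The log2 ratio to the control was 1.52 in shUCP2#2 and -0.16 in shUCP2#3. MT-RNR2 (1671 to 3229, plus strand), the RNA of the large subunit, had 151526 counts in shUCP2#2 and 95875 in shUCP2#3, against 123218 in the control. Here too the control lay between the hairpin libraries, and the edgeR log2 fold change of 0.13 (SE 0.044, adjusted p = 0.0354) was smaller than that of MT-RNR1. MT-RNR2 lost its call when no low-count filter was used (adjusted p = 0.275).

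Ratios between mitochondrial RNAs of 1 library do not depend on how libraries are scaled. There were 0.737 rRNA counts per protein-coding count in shUCP2#2 and 0.626 in shUCP2#3, against 0.596 in the control. The ratio of MT-RNR1 to MT-RNR2 was 0.159 in shUCP2#2 and 0.0842 in shUCP2#3, against 0.0763 in the control. Both ratios were above the control in both shUCP2 libraries, and shUCP2#2 was the farther one. Both rRNA genes lie next to each other on the plus strand, separated by the tRNA gene MT-TV, and belong to 1 precursor. Because it is not known whether the libraries were made from poly(A) RNA, and both rRNAs carry at most short tails, their longest internal runs of A are shown in capitals. They count 6 bases in MT-RNR1 (window 953 to 1038) and 7 in MT-RNR2 (window 2417 to 2503), while the longest runs in the protein-coding genes count 3 to 8 bases.
MT-RNR1: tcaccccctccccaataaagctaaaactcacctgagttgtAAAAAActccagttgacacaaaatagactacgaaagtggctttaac
MT-RNR2: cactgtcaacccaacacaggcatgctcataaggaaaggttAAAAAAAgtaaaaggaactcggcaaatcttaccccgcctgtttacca
How RNA was selected for these libraries is not given in the sources used here.

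RNAs that mostly lack a poly(A) tail were listed beside the rRNAs for the same reason. Of 32 such genes 10 were tested, of which 4 were called higher and 0 lower, where 6.25% and 6.11% of all tested genes were. Some of the 10 had few counts and passed the low-count filter by their shUCP2#2 counts alone. SNORA73B had 17 and 7 counts in the shUCP2#2 and shUCP2#3 libraries, against 7 in the control. SCARNA10 had 17 and 0, against 1, and H4C3 had 22 and 9, against 4. The median log2 ratios to the control over the 10 genes were 1.14 in shUCP2#2 and 0.26 in shUCP2#3, beside 0.0055 and 0 over all tested genes. The filter had a part in the shUCP2#2 median, which therefore says nothing of these RNAs as a class. RN7SL1, the RNA of the signal recognition particle, had 543 counts in shUCP2#2 and 136 in shUCP2#3, against 56 in the control. SNORD3A, the small nucleolar RNA U3, a member of the list that was singled out after its values were seen, had 306 counts in shUCP2#2 and 25 in shUCP2#3, against 28 in the control. It was called higher although its shUCP2#3 level lay just below the control. The most counted histone genes had similar counts in the hairpin libraries. The linker histone gene H1-2 had 12742 and 13088 counts in the shUCP2#2 and shUCP2#3 libraries, against 11208 in the control, H2AC11 had 404 and 420, against 216, and both were called higher, while H2BC11, with 1078 and 1144, against 1001, was not (edgeR adjusted p = 0.211). The high counts of RN7SL1, SNORD3A and the fibroblast markers fell in the same library as the high MT-RNR1 count, and the part of any of these in the mitochondrial values was not tested.

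Complex I, the NADH dehydrogenase, takes 7 of its subunits from the mitochondrial genome, and their messages were split between hairpins except at the far end of the genome. MT-ND5 (12337 to 14148, plus strand), one of the proton-pumping subunits, had 12529 counts in shUCP2#2 and 8862 in shUCP2#3, against 8150 in the control. Both shUCP2 libraries were above the control, at 634 ± 185 CPM (SD, n = 2) against 444 CPM, with a difference of 0.51 on the log2 scale (SE 0.081) and adjusted p = 3.07e-08 in edgeR. The log2 ratio was 0.78 in shUCP2#2 alone and 0.18 in shUCP2#3 alone. Its neighbor MT-ND6 (14149 to 14673, minus strand) is the only protein-coding gene on that strand and encodes another membrane subunit. MT-ND6 had 2262 counts in shUCP2#2 and 1389 in shUCP2#3, against 1393 in the control. Its level was 108 ± 41.9 CPM (SD, n = 2) with the hairpins and 75.9 CPM in the control, with an edgeR log2 fold change of 0.51 (SE 0.11, adjusted p = 1.66e-04). Nearly the whole rise came from shUCP2#2, since the log2 ratio was 0.86 there and 0.053 in shUCP2#3. The ratio of MT-ND6 to MT-ND5 counts was 0.181 in shUCP2#2 and 0.157 in shUCP2#3, with 0.171 in the control between them.

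The other messages of complex I had the control between the hairpin libraries. MT-ND1 (3307 to 4262), a membrane subunit next to the quinone site, had 20583 counts in shUCP2#2 and 13742 in shUCP2#3, against 16136 in the control. It was called higher in edgeR by 0.21 on the log2 scale (SE 0.073, adjusted p = 0.0358), while its own ratios were 0.51 in shUCP2#2 and -0.17 in shUCP2#3, and the call was lost without a low-count filter (adjusted p = 0.0885). MT-ND2 and MT-ND4 encode proton-pumping subunits. MT-ND2 (4470 to 5511) had 22925 and 15357 counts in the shUCP2#2 and shUCP2#3 libraries, against 20724 in the control, and MT-ND4 (10760 to 12137) had 43271 and 29943, against 39018. Their pooled log2 fold changes were 0.0064 (adjusted p = 0.978) and 0.028 (adjusted p = 0.859) in edgeR, near 0 because the hairpin libraries lay at similar distances on either side. MT-ND3 (10059 to 10404) and MT-ND4L (10470 to 10766), small membrane subunits, followed the same order. MT-ND3 had 5677 counts in shUCP2#2 and 3891 in shUCP2#3, against 4895 in the control, and MT-ND4L had 2819 and 2006, against 2469. Neither passed the test (adjusted p = 0.634 for MT-ND3 and 0.698 for MT-ND4L in edgeR). Within the overlap shown above, reads of MT-ND4L and MT-ND4 cannot be told apart.

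MT-CYB (14747 to 15887, plus strand) encodes cytochrome b, the only mitochondrially encoded subunit of complex III. It had 10206 counts in shUCP2#2 and 6658 in shUCP2#3, against 7381 in the control. The shUCP2#3 library was just below the control, with a log2 ratio of -0.092, and the shUCP2#2 library above it at 0.63. Over both the level was 500.2 ± 173 CPM (SD, n = 2), against 402 CPM in the control, and edgeR gave a log2 fold change of 0.31 (SE 0.083, adjusted p = 0.00290).

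Complex IV, cytochrome c oxidase, has its 3 catalytic core subunits encoded here, and their messages were the lowest of the genome relative to the control. MT-CO1 (5904 to 7445), which holds the oxygen-binding site, had 51489 counts in shUCP2#2 and 38608 in shUCP2#3, against 56185 in the control. MT-CO2 (7586 to 8269), which takes electrons from cytochrome c, had 23439 and 16073, against 23178. MT-CO3 (9207 to 9990) had 30030 and 21100, against 32506. After scaling to library size, shUCP2#2 was close to the control (log2 ratios of 0.037, 0.18 and 0.049 for MT-CO1, MT-CO2 and MT-CO3) and shUCP2#3 below it (-0.48, -0.47 and -0.57). MT-CO1 was called lower by edgeR at -0.20 on the log2 scale (SE 0.057, adjusted p = 0.00628) and MT-CO3 at -0.23 (SE 0.065, adjusted p = 0.00694). Both calls rest on shUCP2#3, without which the value turned to the small positive ratios above. MT-CO2 did not pass the test (-0.11, adjusted p = 0.353).

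Complex V, the ATP synthase, has a pair of mitochondrial genes that overlap. MT-ATP6 (8527 to 9207), part of the proton channel, had 11996 counts in shUCP2#2 and 7973 in shUCP2#3, against 9805 in the control. MT-ATP8 (8366 to 8572), the shortest protein-coding gene, had 1059 and 527, against 734. Neither was called (log2 fold change of 0.15 with adjusted p = 0.256 for MT-ATP6 and 0.24 with adjusted p = 0.339 for MT-ATP8 in edgeR). MT-ATP8 had the widest gap between hairpin libraries among protein-coding genes, with shUCP2#2 at 2.16 times shUCP2#3. Its counts stood at 0.0883 of those of MT-ATP6 in shUCP2#2 and 0.0661 in shUCP2#3, with 0.0749 in the control between them. Within the overlap shown above, reads of MT-ATP8 and MT-ATP6 cannot be told apart, so their separate levels are uncertain.

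**Figure D3:**
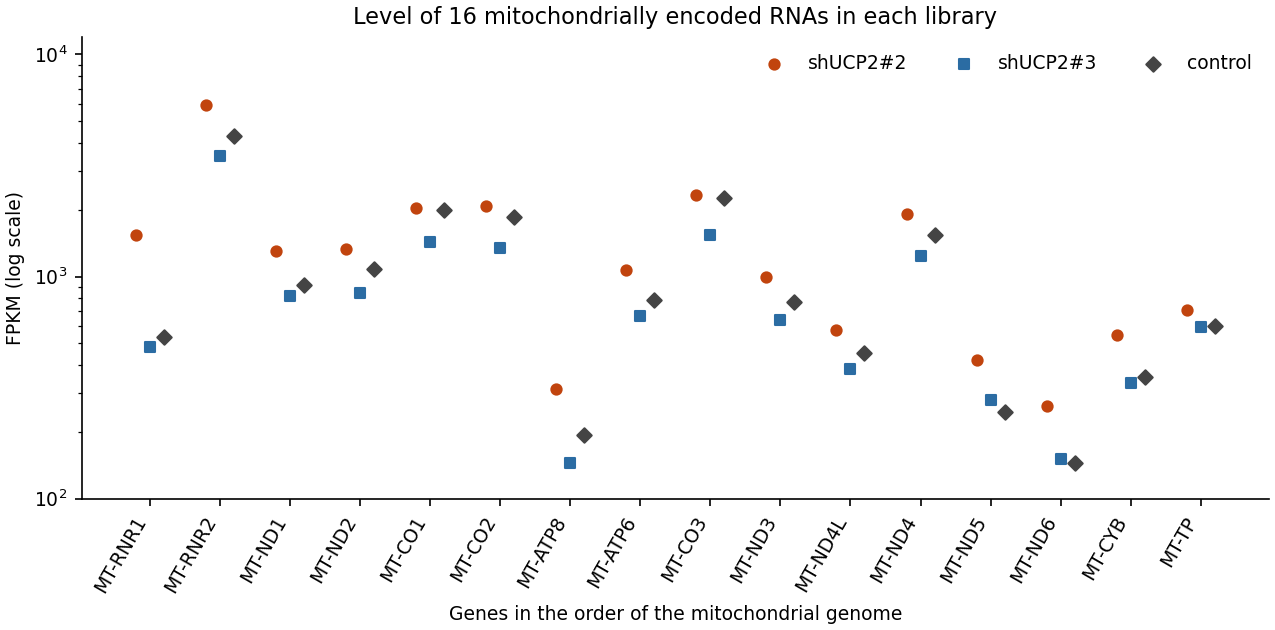
FPKM (log axis) of the 16 tested mitochondrial genes in the shUCP2#2, shUCP2#3 and control libraries, 1 point a library. MT-RNR2 is highest in each library, MT-CO3 is the highest message, and the shUCP2#2 point is above the shUCP2#3 point for all 16 genes.

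Per length, the order of the protein-coding genes was almost the same in the 3 libraries. MT-CO3 was the highest by FPKM, at 2325 in shUCP2#2 and 1532 in shUCP2#3, against 2256 in the control. MT-CO1 and MT-CO2 held the next ranks in either order, and MT-ND4, MT-ND2, MT-ND1, MT-ATP6, MT-ND3, MT-ND4L, MT-CYB and MT-ND5 followed as ranks 4 to 11 in every library. The lowest FPKM was 262 in shUCP2#2 (MT-ND6), 145 in shUCP2#3 (MT-ATP8) and 144 in the control (MT-ND6). The highest gene stood 8.89 times above the lowest in shUCP2#2 and 10.6 times in shUCP2#3, against 15.6 times in the control. Reads in the bases that MT-ATP8 shares with MT-ATP6 cannot be told apart, and their part in these ranges was not tested.

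When only the protein-coding counts of the mitochondrial genome were taken as the whole, both shUCP2 libraries differed from the control in the same direction. Complex IV messages made up 44.0% of these counts in shUCP2#2 (exact 95% interval 43.8 to 44.2%) and 45.6% in shUCP2#3 (45.4 to 45.9%), against 50.3% in the control (50.1 to 50.5%). Messages of complex I made up 46.2% in shUCP2#2 (46.0 to 46.4%) and 45.3% in shUCP2#3 (45.0 to 45.5%), against 41.7% in the control (41.5 to 41.9%). MT-CYB, and with it complex III, took 4.28% and 4.01% in the shUCP2#2 and shUCP2#3 libraries, against 3.32% in the control, and complex V 5.48% and 5.12%, against 4.74%. In the order shUCP2#2, shUCP2#3 and control, there were 0.954, 1.01 and 1.21 counts of complex IV messages per count of complex I messages. The control was outside the range of the shUCP2 libraries for each complex, with no test. A difference of the hairpins and a peculiarity of the 1 control library cannot be told apart.

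The composition was also followed gene by gene. MT-ND5 took 5.26% of protein-coding mitochondrial counts in shUCP2#2 (5.17 to 5.35%) and 5.33% in shUCP2#3 (5.23 to 5.44%), against 3.66% in the control (3.58 to 3.74%). The intervals of the hairpin libraries overlapped, and the log2 ratio of this share to the control was 0.52 in shUCP2#2 and 0.54 in shUCP2#3. MT-ND6 took 0.949% in shUCP2#2 and 0.836% in shUCP2#3, against 0.626% in the control. MT-ND5, MT-ND6 and MT-CYB, the last 3 protein-coding genes in genome order, had the highest such ratios in shUCP2#3, and in shUCP2#2 they were joined by MT-ATP8, whose ratio was 0.43 in shUCP2#2 and -0.056 in shUCP2#3. MT-CO1 took 21.6% and 23.2% in the shUCP2#2 and shUCP2#3 libraries, against 25.2% in the control, and MT-CO3 12.6% and 12.7%, against 14.6%. Counts of MT-ND5 per count of MT-CO1 were 0.243 in shUCP2#2 and 0.230 in shUCP2#3, against 0.145 in the control. For MT-ND2 the share was 9.62% in shUCP2#2 and 9.24% in shUCP2#3, with 9.31% in the control between them.

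**Figure D4:**
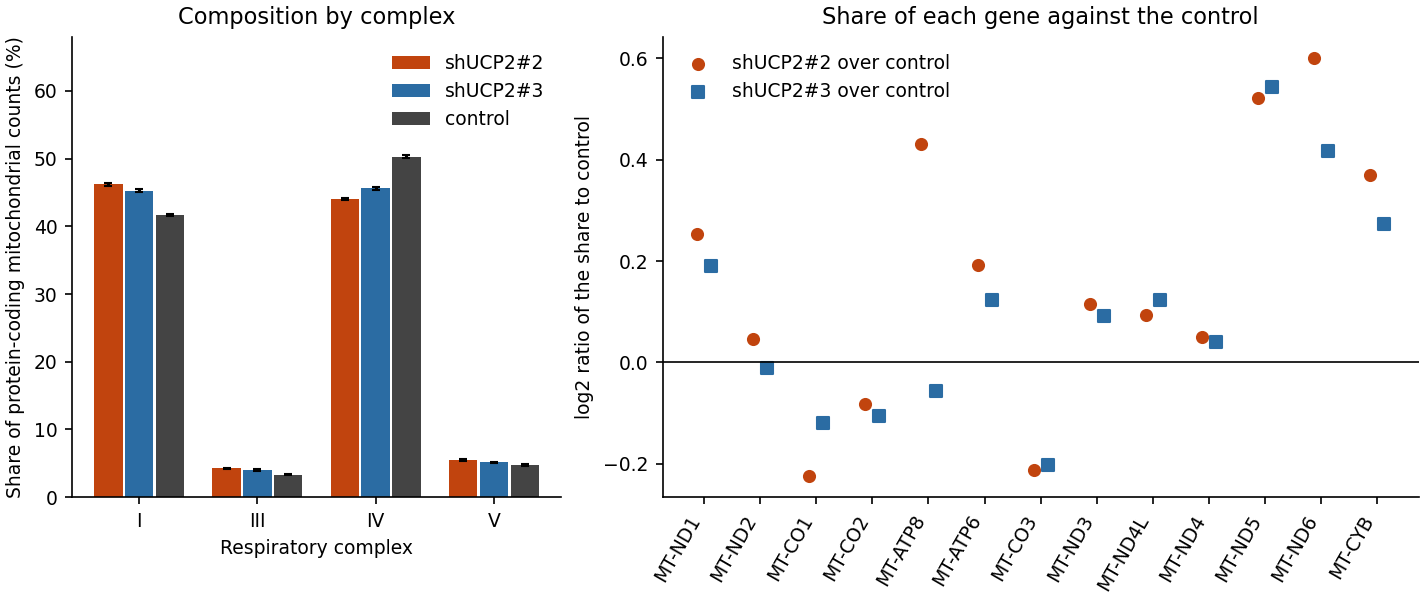
Left, share of the protein-coding mitochondrial counts (%) held by the messages of complexes I, III, IV and V in the shUCP2#2, shUCP2#3 and control libraries, with exact binomial 95% intervals; right, log2 ratio of each gene's share to the control, in genome order, for each shUCP2 library. Complex IV messages hold 44.0% and 45.6% in the shUCP2#2 and shUCP2#3 libraries and 50.3% in the control, and MT-ND5, MT-ND6 and MT-CYB are above 0 in both shUCP2 libraries.

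The tRNA genes were almost without counts, apart from one. Of the 22 genes, which are 59 to 75 bases long, 19 had 0 counts in all 3 libraries. MT-TF had 0 counts in shUCP2#2 and 0 in shUCP2#3, against 3 in the control, and MT-TC had 0 and 1, against 0. MT-TP, the gene of the proline tRNA, had 796 counts in shUCP2#2 and 711 in shUCP2#3, against 747 in the control. These counts lay close together, at 44.4 ± 5.84 CPM (SD, n = 2) with the hairpins and 40.7 CPM in the control, and MT-TP was not called (log2 fold change 0.13, SE 0.15, edgeR adjusted p = 0.698). It was also the tested gene with the smallest gap between hairpin libraries, 1.20 times. MT-TP and MT-TF are the tRNA genes that border the control region, which holds the promoters and no gene of the table, and MT-TF is preceded by 576 bases without a gene. The other 20 have a neighboring gene within 31 bases on both sides. MT-TT, the threonine tRNA gene, ends 2 bases before MT-TP on the opposite strand and had 0 counts. MT-TP, MT-TT and MT-TF are shown whole, each on its own strand, because they are of similar length and differ in counts and position.
MT-TP (15956 to 16023, minus strand): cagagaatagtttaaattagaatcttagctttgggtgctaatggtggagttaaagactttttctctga
MT-TT (15888 to 15953, plus strand): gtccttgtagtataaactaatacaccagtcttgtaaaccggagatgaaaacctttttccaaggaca
MT-TF (577 to 647, plus strand): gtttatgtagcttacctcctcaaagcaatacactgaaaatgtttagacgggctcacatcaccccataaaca
The table gives no count for the control region itself, so whether the counts at MT-TP come from the tRNA or from longer RNA across it cannot be told apart. A count of 0 for a tRNA gene says only that no read was assigned to it.

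Copies of mitochondrial DNA in the nuclear genome can take reads from these genes. The table lists 402 genes named as such copies or as humanin-like genes, of which 386 had 0 counts in all libraries. MTATP6P1 (chromosome 1, 633696 to 634376, GRCh38) had 1930 counts in shUCP2#2 and 1101 in shUCP2#3, against 1384 in the control. MTND2P28 (chromosome 1, 629640 to 630683) had 881 and 615, against 794, and MTCO1P12 (chromosome 1, 631074 to 632616) had 92 and 77, against 71. These copies are 98.5%, 98.4% and 98.7% identical to MT-ATP6, MT-ND2 and MT-CO1. MTATP6P1 counts stood at 0.161 of those of MT-ATP6 in shUCP2#2 and 0.138 in shUCP2#3, against 0.141 in the control, and none of the 3 copies was called. The counts of all copies together, which are not among the mitochondrial counts, equalled 1.23%, 1.09% and 1.02% of the protein-coding mitochondrial counts in the shUCP2#2, shUCP2#3 and control libraries. Adding the counts of these 3 copies to their mitochondrial genes left the number of called genes at 8.

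Nuclear genes that serve the mitochondrial genome lay mostly below the control in both shUCP2 libraries. Of 85 tested genes in lists of transcription, replication, RNA processing, RNA modification and translation factors, 19 were called lower and 1 higher, where 6.11% and 6.25% of all tested genes were, and 66 were below the control in both shUCP2 libraries, beside 38.1% of all tested genes. The median log2 ratio was -0.31 in shUCP2#2 and -0.26 in shUCP2#3, and these medians were closer to each other than those of the mitochondrial genes. The erythroid and megakaryocyte markers moved in the same direction, with 6 of 11 called lower, 1 higher, and medians of -0.28 in shUCP2#2 and -0.35 in shUCP2#3, and their part in the values of the nuclear genes was not tested. POLRMT, the mitochondrial RNA polymerase, had 496 and 530 counts in the shUCP2#2 and shUCP2#3 libraries, against 897 in the control, and fell by 0.70 on the log2 scale (SE 0.15, edgeR adjusted p = 1.03e-04). MRPL12, a ribosomal protein that also binds POLRMT, fell by 0.53 (adjusted p = 0.00610). TFAM, which packages mitochondrial DNA and opens its promoters, had 3535 and 4126 counts, against 4321, and did not pass the test (log2 fold change -0.067, adjusted p = 0.740). Of 16 tested replication and maintenance genes 2 fell, with 6.11% of all tested genes called lower, ATAD3A of nucleoid organization (-0.93) and SSBP1, the single-stranded DNA binding protein (-0.42).

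Genes of RNA cleavage, polyadenylation and stability held the most calls among these lists. All 22 were below the control in both shUCP2 libraries and 9 were called lower, beside 38.1% and 6.11% of all tested genes, with medians of -0.34 in shUCP2#2 and -0.35 in shUCP2#3. ELAC2, which cuts the 3′ ends of tRNAs out of the precursor, had 586 and 699 counts in the shUCP2#2 and shUCP2#3 libraries, against 1377 in the control. Its value of -0.99 on the log2 scale (SE 0.13, adjusted p = 2.85e-11 in edgeR) was the largest fall of the list. SLIRP, which stabilizes mitochondrial messages with LRPPRC, was at -0.67, TBRG4, a FASTK family RNA-binding protein, at -0.66 and REXO2, which degrades short RNA, at -0.58. SUPV3L1, the helicase of the RNA degradosome, was at -0.53, and TRNT1, which adds the CCA end to tRNAs, at -0.50. Of 24 tested modification genes 3 fell (TRUB2 at -0.62, CDK5RAP1 at -0.51 and NSUN2 at -0.49) and 1 rose, MTO1 of tRNA wobble modification (0.37). Among 14 translation factors 3 fell, the elongation factor genes TUFM (-0.49) and GFM1 (-0.38) and the ribosome recycling factor gene GFM2 (-0.47).

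The nuclear subunits of the complexes that hold mitochondrially encoded subunits were also counted. Of 76 tested subunits 18 were called lower and 1 higher, and 53 were below the control in both shUCP2 libraries, beside 6.11%, 6.25% and 38.1% of all tested genes, with medians of -0.18 in shUCP2#2 and -0.20 in shUCP2#3. Complex I had 7 of 37 called lower, among them NDUFB7 (-0.68) and NDUFAB1 (-0.59). In complex III 3 of 9 were called lower, namely UQCR10 (-0.60), CYC1 (-0.42) and UQCRFS1 (-0.39), and in complex IV 5 of 12, led by COX8A (-0.59) and COX6B1 (-0.38). Complex V had 3 of 18 lower, with ATP5MK at -0.45 and ATP5MC3 at -0.42, and 1 higher, ATP5PD (0.33). Per length, the mean level of the mitochondrial messages exceeded that of the nuclear ones in each complex. For complex I the ratio of mean FPKM was 33.8 in shUCP2#2 and 22.4 in shUCP2#3, against 23.1 in the control. In complex IV it was 31.4 and 22.5, against 26.1, in complex III 5.77 and 3.72, against 3.41, and in complex V 8.62 and 4.98, against 5.58. These ratios were highest in shUCP2#2 for all 4 complexes. In DESeq2, where 63 of the expression genes and 70 of the subunits had an adjusted p, 11 and 5 were called lower. In limma on log2(FPKM + 1), which called 2 of 10937 genes in all, 0 of each were.

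**Figure D5:**
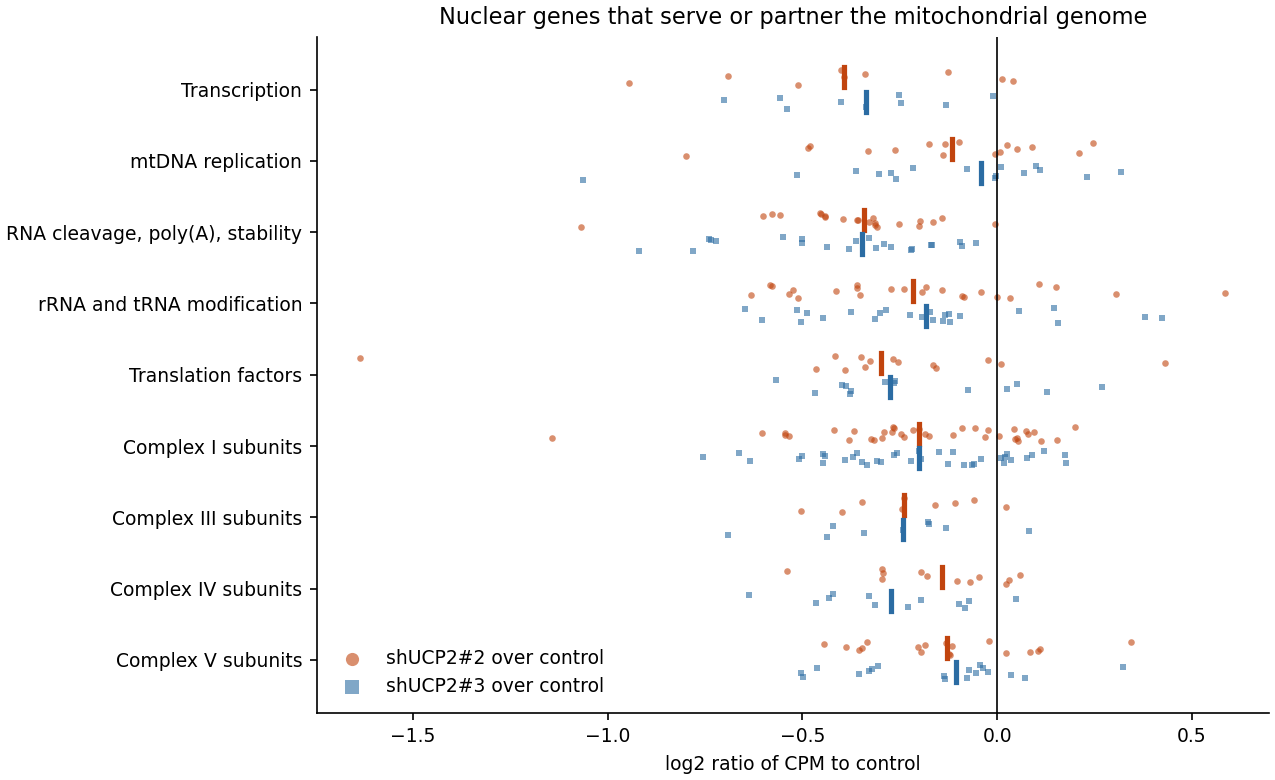
log2 ratio of CPM to the control library for each tested nuclear gene of mitochondrial gene expression (5 lists) and of the nuclear subunits of complexes I, III, IV and V, for shUCP2#2 (upper row of each pair) and shUCP2#3 (lower row). Points are genes and vertical bars list medians. The medians are below 0 in every list for both libraries, from -0.39 (transcription, shUCP2#2) to -0.041 (replication, shUCP2#3).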

How the data were processed

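RNA of 3 libraries was sequenced. Tools named in the submitters' processing notes were HTSeq 0.6.1, SAMtools 0.1.19 and DESeq2, besides HISAT2 2.2.1, cutadapt 1.9.1 and Cufflinks 2.2.1, with GRCh38 as the build. Annotation release, strand setting, treatment of reads with several matches and how RNA was selected were not given in the sources used here, and total RNA is the stated molecule while the extraction text is for DNA. The authors deposited raw read counts per gene, not normalized, and FPKM, which equals the count scaled to exonic gene size and to the library's gene total in 100% of rows (within 0.1% or 0.0051 FPKM). Groups came from the sample labels.

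Counts were tested with edgeR 4.0.16 in R 4.3.3 (filterByExpr, TMM, quasi-likelihood F test, two-sided, both shUCP2 libraries against the control) on all genes, with Benjamini-Hochberg adjustment over 15232 tested genes at 0.05, and the steps were checked on simulated data. SE is the fold change over the root of F. Ratios per library used log CPM with a prior count of 2, with no test. Shares have exact binomial 95% intervals, for counting error only. All mitochondrial genes were named. Of each nuclear list at most 6 called genes of largest fold change were named, plus TFAM and POLRMT. For nuclear copies and RNAs without poly(A) these were at most 4 with the most counts, besides SNORD3A and genes named for few counts. Members and lists were chosen with earlier results of these data known. Alternatives were other scalings (RLE, upper quartile, totals, TMM without mitochondrial genes), other filters, limma 3.58.1 (voom, and log2(FPKM + 1) with pseudocounts 0.1 and 5) and DESeq2 1.42.0. Leaving out each shUCP2 library was not a new fit and gave the ratio of the other library to the control. Sequences were cut from GENCODE 29 transcripts with Biopython 1.88, and figures drawn with Python 3.11.15 and matplotlib 3.10.9.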

Additional observations from a re-analysis of the deposited data

Results flagged for a closer look

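In 6 genes called by edgeR, the 2 hairpin libraries moved in opposite directions from the shared control. The log2 ratios in shUCP2#2 and shUCP2#3 were 1.52 and -0.16 for MT-RNR1, 0.46 and -0.31 for MT-RNR2, 0.51 and -0.17 for MT-ND1, and 0.63 and -0.092 for MT-CYB. They were 0.037 and -0.48 for MT-CO1 and 0.049 and -0.57 for MT-CO3. The difference between the hairpins was not tested, since each has 1 library.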

How the results depend on the processing

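Other scalings, the filter at a mean FPKM of at least 1, edgeR's robust option and the addition of nuclear copies (the robust option and the copies chosen after seeing the data) left 6 mitochondrial genes called higher and 2 lower. No filter and limma-voom called 4 higher and 2 lower, without MT-RNR2 and MT-ND1. Without the abundance trend of the variance 3 were called higher (MT-RNR1, MT-ND5 and MT-ND6) and 0 lower, with 5 at an unadjusted p under 0.05. DESeq2 called 0 higher and 0 lower, as did limma on log2(FPKM + 1), log2(FPKM + 0.1) and log2(FPKM + 5), with 0 genes at an unadjusted p under 0.05 in each, but these limma fits called only 2, 1 and 24 of 10937 genes in all. Of nuclear genes of mitochondrial gene expression, 19 of 85 called lower became 11 of the 63 with an adjusted p in DESeq2 and 0 of 82 in each limma fit on FPKM. Of nuclear subunits, 18 of 76 became 5 of 70 and 0 of 76. Leaving out 1 shUCP2 library involved no new fit and left the log2 ratio of the other library to the control. It was thus no further check of the values given by library above. The ranges of this ratio were -0.16 to 1.52 for MT-RNR1, -0.31 to 0.46 for MT-RNR2 and -0.17 to 0.51 for MT-ND1. For MT-CYB the range was -0.092 to 0.63, and each of these was negative without shUCP2#2. The ranges were -0.48 to 0.037 for MT-CO1 and -0.57 to 0.049 for MT-CO3, each positive without shUCP2#3. The pooled values of genes not called turned sign within 0.1 of 0, MT-ND2 to -0.040 in limma-voom and -0.032 in the 3 fits on FPKM, and MT-ND4 to -0.013 and to -0.0049, -0.0050 and -0.0048 at pseudocounts 1, 0.1 and 5. The ranges were 0.18 to 0.78 for MT-ND5 and 0.053 to 0.86 for MT-ND6. The log2 ratio to the control of the share of all counts ranged from -0.36 to 0.26 for protein-coding genes, from -0.29 to 0.56 for rRNA and from -0.0097 to 0.24 for tRNA genes, so each turned with the library left out. Those of rRNA to protein-coding counts (0.071 to 0.31) and of the complex IV share (-0.19 to -0.14) had the same sign in both libraries, as given above. They kept it by FPKM and without the overlapping pairs. No paired analysis was possible because the control is a single library and the labels name no pairs. Each library held at least 16475165 counts, but the control is 1 library. Culture, library and treatment cannot be told apart.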
